A study of Prunus dulcis and Prunus persica and Prunus persica x Prunus dulcis with 15 samples.

Results

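Long LTR retrotransposons of the peach genome are the TEs whose name in the deposited peach table contains LTRretrotransposon and whose annotated span is at least 4000 bp. The rule uses the annotation alone and no methylation value. It selected 3844 of the 33879 TEs of the table (11.3%), or 20.4% of its 18798 LTR retrotransposons. These elements made up 63.9% of the summed length of all LTR retrotransposons, 26.4 Mb in all.

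The groups were the interspecific F1 hybrid MB 1.37 and its peach parent, cv Early Gold. The other parent was almond, cv Texas. Fully expanded leaves of well watered, field-grown trees were taken at the end of September from all of them, and no treatment was applied. DNA methylation was measured by whole genome bisulphite sequencing of 2 libraries of the hybrid and 2 of peach, and RNA by sequencing of 3 libraries of each genotype. The hybrid was a single F1 genotype, so its values describe that cross and not peach by almond hybrids in general.

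LTR retrotransposons copy themselves through an RNA that is reverse transcribed and inserted elsewhere in the genome, and they are flanked by long terminal repeats that carry the promoter. Plants keep them silent largely by cytosine methylation, in CG sites and in CHG or CHH sites (H stands for A, C or T). CG methylation is copied at replication by a maintenance methyltransferase, CHG methylation is kept by chromomethylases that bind methylated histone H3, and CHH methylation is placed anew by chromomethylases in long heterochromatic elements or by small RNAs. Old and truncated copies often accumulate near centromeres, whereas copies close to genes can escape silencing.

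The deposited values are the percent of methylated calls of an element in a context, with 1 value for the hybrid and 1 for peach, both on the peach genome. The libraries of a genotype share a column, so no difference could be set against the spread between replicates and no test is given for methylation. Every SD in the methylation results is over elements. The coverage behind a value was not in the table, so the depth is unknown. Reads of the hybrid come from both its peach and its almond chromosomes, and the percentages do not tell them apart.

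Of the 3844 elements, 3560 (92.6%) had a value in at least 1 context in the hybrid and 3680 (95.7%) in peach. A value in the hybrid only was given for 46, in peach only for 166 and in neither genotype for 118. All 3 contexts were given in both genotypes for 3427 elements (89.2%), against 47.9% of the 14954 shorter LTR retrotransposons of the same table. The median length was 5601.5 bp and the longest element spanned 39460 bp. The annotation gave a strand to 1883 of them (49.0%), against 1.85% of the shorter LTR retrotransposons.

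All 3844 carried the name of an element of the peach annotation. A name is that of the annotated element a copy was assigned to, so copies of a name are related sequences and not independent observations. There were 1938 names, of which 1625 had a single long copy, and the 8 names with at least 20 copies held 1270 elements (33.0%). A further limit is that 352 elements (9.16%) overlapped another of the 3844.

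The long elements were heavily methylated in both genotypes. Mean CG methylation was 90.95% ± 11.5 in the hybrid (SD, n = 3514 elements) and 93.47% ± 10.8 in peach (n = 3652). Mean CHG methylation was 66.24% ± 14.7 in the hybrid (n = 3511) and 69.36% ± 18.0 in peach (n = 3647). Mean CHH methylation was 9.31% ± 5.6 in the hybrid (n = 3554) and 9.36% ± 5.2 in peach (n = 3677). CG and CHG averages were thus a few points lower in the hybrid, and the CHH averages nearly coincided.

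CG methylation was close to saturation and spread little. It was above 90% in 80.1% of the elements in the hybrid and in 90.5% in peach. Medians were 94.10% in the hybrid and 96.16% in peach. CHG methylation was spread more widely, with 11.7% of the elements above 80% in the hybrid and 29.2% in peach. At the other end, 117 elements (3.33%) were under 30% CHG in the hybrid and 223 (6.11%) in peach. Among elements with a value, the hybrid therefore had fewer at both ends of the CHG range. The elements counted differ between the genotypes, since only 182 of the 223 had a CHG value in the hybrid.

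**Figure D1:**
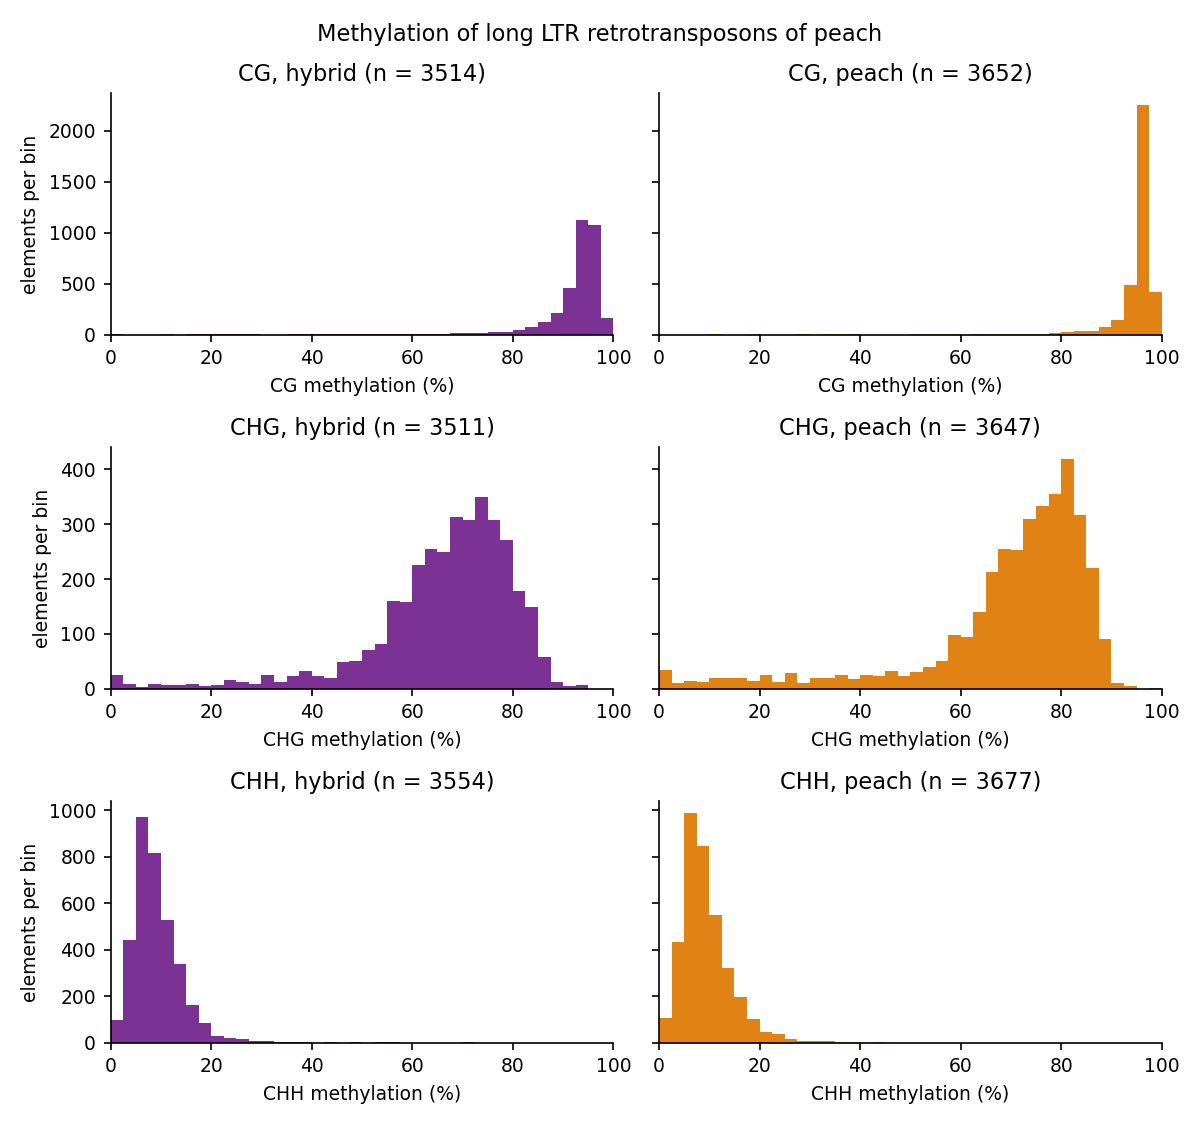
Number of long LTR retrotransposons of peach (y axis, elements per bin of methylation) by CG, CHG and CHH methylation level in percent (x axis), in the hybrid (left column) and in peach (right column). CG values pile up near saturation in both genotypes, the main CHG peak lies at a lower level in the hybrid, and the CHH panels look alike, with means of 9.31% in the hybrid and 9.36% in peach.

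CHH methylation of the long elements was low beside that of other TEs. Over the 30035 remaining TEs of the table, which include shorter LTR retrotransposons and all other classes, it averaged 16.27% in the hybrid and 18.70% in peach. Only 110 long elements (3.10%) were above 20% CHH in the hybrid and 132 (3.59%) in peach, whereas the share above it among all TEs was 18.8% in the hybrid and 23.6% in peach. CHG methylation went the other way, with means of 60.04% in the hybrid and 64.48% in peach over the remaining TEs.

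Taken element by element, the hybrid was slightly lower than peach in CG and CHG. Subtracting peach from the hybrid gave a mean paired difference of -2.38 percentage points in CG (SD 4.99, n = 3463, median -1.73) and -3.84 points in CHG (SD 8.50, n = 3458, median -5.03). In CHH it was -0.06 points (SD 2.80, n = 3506, median -0.17). The hybrid was below peach for 86.8% of CG pairs, 86.1% of CHG pairs and 55.2% of CHH pairs. Most pairs of other TEs were lower as well. In the 6 bins of chromosome position described below, TEs of other classes were lower in 69.1% to 84.4% of CG pairs and 68.5% to 83.9% of CHG pairs. For shorter LTR retrotransposons of most names the shares were 72.8% to 80.7% in CG and 67.6% to 84.3% in CHG. CG and CHG were both lower in the hybrid for 2686 of the 3427 long elements with all contexts (78.4%), and CHH was lower as well for 1556 of these. These joint shares were not computed for other TEs.

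Differences of 10 points or more were the exception. In CHG, 351 elements were lower by at least 10 points in the hybrid (18.9% of all TEs with a pair were) and 187 were higher by as much (4.77% of all TEs). In CG, 152 were lower (7.12% of all TEs) and 24 were higher (1.95% of all TEs). In CHH, 18 were lower (2.95% of all TEs) and 35 were higher (3.38% of all TEs). As shares of the paired long elements, these counts are below that background in every context and direction except for CHG levels higher in the hybrid, where 5.41% of the elements stood against 4.77%. The difference was within 10 points in all contexts for 2810 elements (82.0%), a share that was not computed for all TEs.

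The order of the elements was largely kept. Spearman's rho between the hybrid and peach, over elements that share libraries and a genome, was 0.90 in CHG, 0.87 in CHH and 0.67 in CG. Within peach, CHG and CHH levels went together (rho 0.51, n = 3646), while CG and CHG levels hardly did (rho 0.10, n = 3632).

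The shorter LTR retrotransposons had paired differences of -2.44 points for CG sites, -5.33 points for CHG and 0.27 points for CHH. The 162 elements that exceeded the length limit by under 100 bp had a mean CHG difference of -4.82 points, and the 134 that fell short of it by up to 100 bp one of -5.0 points. On the almond genome, where the hybrid was set against almond, the 3079 LTR retrotransposons of the same minimum length had a CG difference of -0.98 points, a CHG difference of -1.01 and a CHH difference of 0.38. These are other elements on another genome, and the differences between the sets were not tested.

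The mean CHG difference hid a split by element name. Among the 7 names with at least 20 paired copies, 5 had a mean CHG difference below 0 and LTRretrotransposon1158 and LTRretrotransposon563 had means above 0. The last were named by a fixed rule that takes the highest CHG differences, so their values are a description of extremes. The 234 long copies of LTRretrotransposon1158 had a mean CHG level of 52.85% in the hybrid (SD 15.8, n = 152) and 37.26% in peach (SD 21.3, n = 213). The paired difference was 14.59 points (SD 14.79, n = 149), and the hybrid was higher in 123 of the pairs. The 35 copies of LTRretrotransposon563 had a mean of 55.15% in the hybrid and 43.24% in peach, with a paired difference of 11.50 points (SD 13.82, n = 24).

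The other frequent names lay on the other side of zero. LTRretrotransposon4571, the most frequent with 439 copies, averaged 60.68% CHG in the hybrid and 65.32% in peach, a paired difference of -4.72 points (SD 5.95, n = 367). LTRretrotransposon3464 had 255 copies and a paired CHG difference of -5.18 points (SD 7.75, n = 181). LTRretrotransposon1466 had the lowest mean paired difference of the 7, at -7.67 points (SD 3.54, n = 113), with 58.88% in the hybrid and 66.73% in peach and the hybrid lower in 109 of its pairs. LTRretrotransposon5129 had -5.64 points (n = 74) and LTRretrotransposon4003 had -5.47 points (n = 85).

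**Figure D2:**
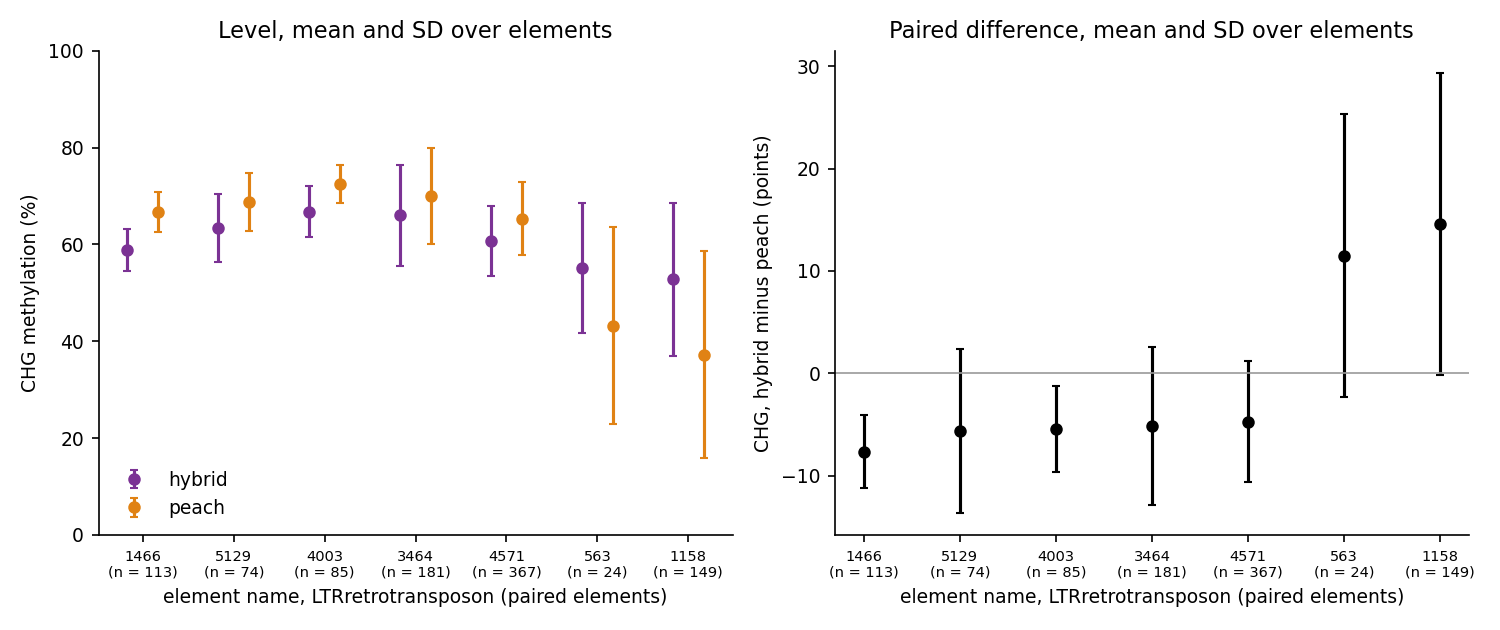
CHG methylation by element name, for the 7 names with at least 20 paired copies: levels in percent (left panel, hybrid left of peach in each pair) and the paired difference in percentage points, hybrid minus peach (right panel). Points are means and bars SD over copies. Levels in the hybrid lie below those in peach for 5 names and above them for LTRretrotransposon563 and LTRretrotransposon1158, whose mean differences were 11.50 and 14.59 points.

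Taken as a pair of names, LTRretrotransposon1158 and LTRretrotransposon563 had a CHG difference of 14.16 points (SD 14.66, n = 173). In it 108 copies were higher by at least 10 points in the hybrid and 10 were lower. All other names together had a difference of -4.79 points (SD 6.84, n = 3285), from 66.96% in the hybrid and 71.75% in peach. Of the 187 elements higher by at least 10 points in CHG, 95 carried the name LTRretrotransposon1158, 13 the name LTRretrotransposon563 and 79 other names.

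CG methylation of these copies was not set apart in the same way. It averaged 93.37% in the hybrid and 94.62% in peach, with a paired difference of -0.99 points (SD 3.64, n = 183). Their CHH methylation averaged 10.37% in the hybrid and 9.13% in peach, a paired difference of 0.86 points (SD 5.22, n = 203). In peach, LTRretrotransposon1158 thus combined nearly full CG methylation with a low CHG level. Its mean CHH level in peach was the highest of the 7 names, at 9.39% (SD 5.44), but was not set apart. LTRretrotransposon3464 had 9.29% and all long elements together had 9.36%.

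The same copies were less often covered in the hybrid. A value in any context was given for 208 of the 269 copies in the hybrid (77.3%) and for 259 in peach (96.3%), whereas the remaining long elements had one in 93.8% of cases in the hybrid and in 95.7% in peach. All 3 contexts were present in both genotypes for 61.7% of the 269 copies and for 91.2% of the others. The almond table listed a single copy named LTRretrotransposon1158, shorter than 4000 bp, and 13 named LTRretrotransposon563. Almond copies can also carry names of almond elements, so these counts are not the number of related copies in almond. The part of coverage in the CHG difference was not tested.

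**Figure D3:**
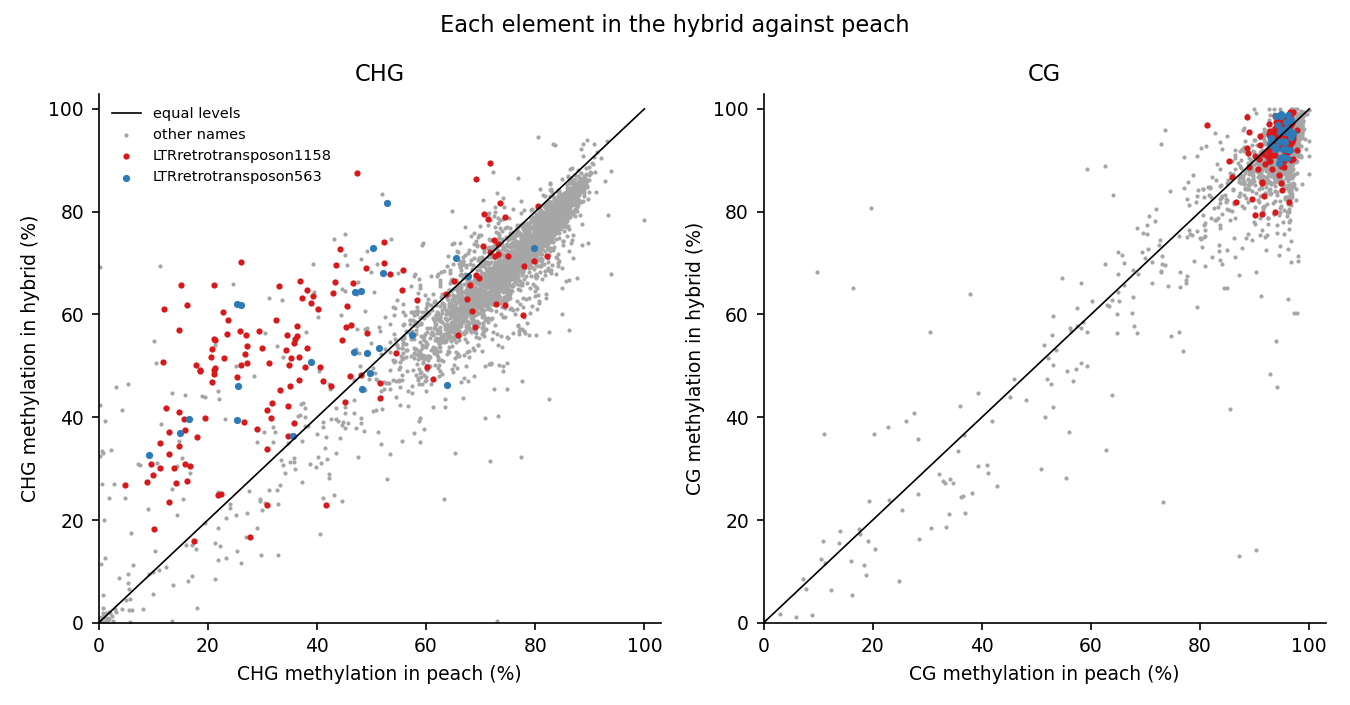
CHG (left) and CG (right) methylation of each long LTR retrotransposon in the hybrid (y axis, percent) against peach (x axis, percent), with copies of LTRretrotransposon1158 in red, of LTRretrotransposon563 in blue and of all other names in grey; the line marks equal levels. Most grey points lie just below the line in CHG, while most coloured points with low CHG in peach lie above it (108 copies higher by at least 10 points), and in CG the coloured points sit near saturation in both genotypes.

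Low CHG methylation in peach came in 2 forms. Of the 223 elements under 30% CHG in peach, 105 were copies of LTRretrotransposon1158 or LTRretrotransposon563, and all 102 of these with a CG value were above 80% CG, with a median of 94.6%. The 118 under other names had a median CG level of 53.1% in peach, with 36 above 80% and 54 under 50%. The first group had low CHG with high CG methylation, and many elements of the second were low in both.

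Sorted by their CHG level in peach, the 182 paired elements under 30% averaged 28.35% in the hybrid and 14.03% in peach, a difference of 14.31 points. The 66 of them named LTRretrotransposon1158 or LTRretrotransposon563 averaged 43.6% in the hybrid and 19.1% in peach, a difference of 24.58 points. The 116 of other names had a mean difference of 8.47 points and a median of 0.53, with the hybrid lower in 52 and higher in 64. The 3276 elements at 30% or more had a difference of -4.85 points. Between 70% and 80% the difference was -6.15 points (n = 1216). The peach level enters both the sorting and the difference, so elements with a low value in peach tend to be higher in the hybrid by the sorting alone.

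The names clustered on the chromosomes. When each chromosome was divided into windows of 1 Mb, 201 of the 234 copies of LTRretrotransposon1158 (85.9%) lay in 8 windows, 1 on each chromosome. These windows were Pp01:21000001-22000000, Pp02:10000001-11000000, Pp03:12000001-13000000, Pp04:20000001-21000000, Pp05:7000001-8000000, Pp06:16000001-17000000, Pp07:4000001-5000000 and Pp08:8000001-9000000, in the coordinates of the deposited table, whose assembly version is not given in the sources used here. On every chromosome this was also the window with most long LTR retrotransposons, from 45 on Pp06 to 61 on Pp03. These totals include the copies by which the windows were picked. Without LTRretrotransposon1158 and LTRretrotransposon563 the windows held from 17 elements on Pp04 to 33 on Pp03 and Pp08. Every chromosome then had another window with more. Whether the 8 windows hold the centromeres was not examined here.

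With all names together, mean CHG methylation was higher in the hybrid in most of these windows and lower in the other windows described. The means include the copies of LTRretrotransposon1158 by which the windows were picked. That name was itself picked for a high CHG difference, so high means here follow in part from the choice of windows. Of the 67 windows with at least 20 pairs, 6 had a mean CHG difference above 0, and each of the 6 was the LTRretrotransposon1158 window of its chromosome. The largest was on Pp02, with 63.9% in the hybrid and 52.5% in peach, a difference of 11.46 points (SD 15.9, n = 37). On Pp05 the mean was 61.1% in the hybrid and 49.9% in peach, and on Pp04 it was 50.8% in the hybrid and 39.6% in peach. The windows of Pp06 (-3.50 points, n = 41) and Pp08 (-2.31 points, n = 39) were the exceptions, with 12 and 17 copies of LTRretrotransposon1158. The other 59 windows lay between -9.18 and -0.33 points.

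Within the windows the copies of both names were higher in CHG in the hybrid on 7 chromosomes and lower on Pp06. On Pp02, 20 paired copies of the names averaged 62.0% in the hybrid and 42.7% in peach. On Pp03, 22 copies averaged 44.6% in the hybrid and 27.3% in peach. On Pp06, 12 copies averaged 55.3% in the hybrid and 58.3% in peach, and these were the copies with the highest level in peach of the 8 windows. On Pp08, 8 copies averaged 55.0% in the hybrid and 41.5% in peach. The lower mean of its window came from 31 elements of other names, at 64.0% in the hybrid and 70.4% in peach. Other windows differed from Pp08 in this. Elements of other names had means above 0 on Pp02, Pp03, Pp04, Pp05 and Pp07, from 2.28 points on Pp02 to 6.32 on Pp04. The means were -1.49 points on Pp01, -3.73 on Pp06 and -6.38 on Pp08. In each of the windows more of these elements were lower than higher in the hybrid.

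The distance to these windows was examined after the values had been seen. Within 0.5 Mb of a window's centre, 341 long elements averaged 60.01% CHG in the hybrid and 53.5% in peach, a difference of 6.54 points (SD 15.0). The 190 of them with other names averaged 65.5% in the hybrid and 65.3% in peach, a mean difference of 0.22 points (SD 11.9) but a median of -3.55. Between 1.5 and 3 Mb away the elements of other names had a difference of -5.49 points (n = 623), and beyond 10 Mb of -4.45 points (n = 535). Shorter LTR retrotransposons of other names had a mean of -1.64 points within 0.5 Mb (n = 383) and TEs of other classes -1.87 points (n = 244), against -6.39 and -5.33 points between 1.5 and 3 Mb away. Medians of these sets, in the same order, were -4.02 and -3.70 points within 0.5 Mb. They were -6.07 and -5.44 points between 1.5 and 3 Mb away, and -4.19 and -3.37 points beyond 10 Mb.

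**Figure D4:**
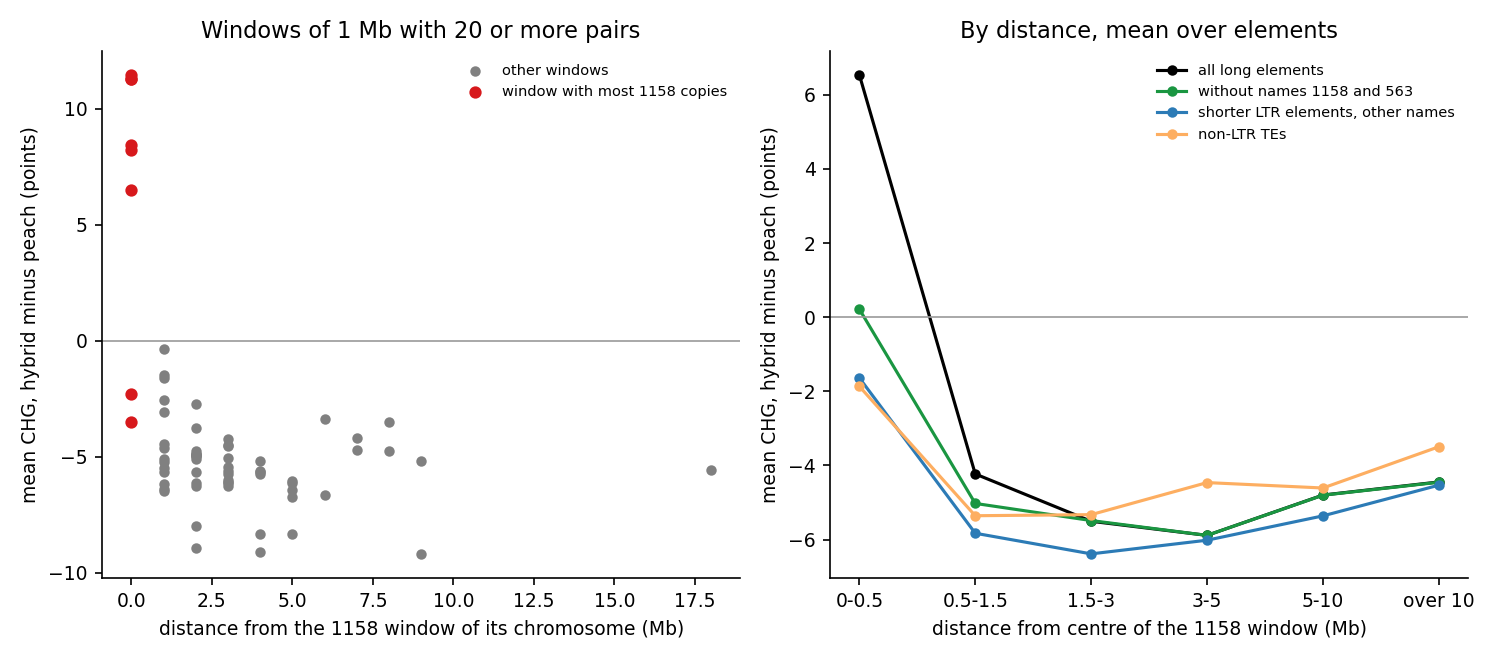
Mean CHG difference in percentage points, hybrid minus peach (y axes), by distance in Mb from the window of each chromosome with most copies of LTRretrotransposon1158. Left, each point is a window of 1 Mb with at least 20 paired long elements (67 windows, the 8 richest in LTRretrotransposon1158 in red); right, means over elements in 6 bins of distance for all long elements, for those of other names, for shorter LTR retrotransposons and for non-LTR TEs. The 6 windows above 0 are all red, and the window means include the copies by which the red windows were picked. The nearest bin has the highest mean for each set, from -1.87 points in non-LTR TEs to 6.54 points in all long elements. By median, which is not drawn, non-LTR TEs had -3.70 points in the nearest bin and -3.37 beyond 10 Mb.

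CG differences had no such exception. The mean CG difference was below 0 in all 67 windows, between -6.18 and -0.52 points. The mean CHH difference was above 0 in 32 of them and lay between -0.98 and 1.81 points. By whole chromosome, the CHG difference ran from -5.15 points on Pp06 (n = 458) to -0.34 on Pp05 (n = 232), and without the names LTRretrotransposon1158 and LTRretrotransposon563 from -5.39 on Pp02 to -3.94 on Pp05. The CG difference ran from -3.03 points on Pp08 to -1.61 on Pp03. The 17 elements on scaffolds outside the chromosomes had a CHG difference of 3.08 points (SD 16.9, n = 16), with a median of -3.70.

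Elements with and without a strand differed in level. In those with a strand, CHG methylation averaged 68.77% in the hybrid and 73.56% in peach, with a paired difference of -4.82 points (SD 6.29, n = 1799). Those without a strand averaged 63.50% in the hybrid and 65.14% in peach, with a paired difference of -2.78 points (SD 10.28, n = 1659). Without LTRretrotransposon1158 and LTRretrotransposon563 the difference of elements lacking a strand was -4.75 points. CG methylation ran the other way, at 89.04% in the hybrid and 91.89% in peach with a strand and at 93.00% in the hybrid and 95.04% in peach without. Length showed the same dependence on names, since elements of at least 12000 bp had a CHG difference of -0.04 points (n = 252) that was -4.21 without both names.

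The longest elements were copies of LTRretrotransposon1158. The longest, Pp04:20908579-20948038, had 30.1% CHG in the hybrid and 13.9% in peach, at 89.8% CG in the hybrid and 92.8% in peach. The next, Pp05:6972487-7006999, had 46.9% CHG in the hybrid and 20.7% in peach. The third, Pp05:7047229-7078429, had 56.8% CHG in the hybrid and 25.9% in peach. All of them lay in or next to the windows described above.

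Few elements had low CG methylation. In peach 64 were under 50% CG, of which 49 had a strand. Their median CHG and CHH levels in peach were 5.69% and 2.84%. Their median CG level was 24.8% in the hybrid and 25.8% in peach, so most of them still held some CG methylation. Of the 61 with a pair, 56 were under 50% CG in the hybrid as well and 1 was above 80%. LTRretrotransposon977 (Pp01:42639209-42644471, minus strand) had 0.38% CG in the hybrid and 0% in peach. LTRretrotransposon5453 (Pp08:21706168-21711369, plus strand) had 1.74% in the hybrid and 3.07% in peach, and LTRretrotransposon1734 (Pp02:21108551-21113984, plus strand) had 1.23% in the hybrid and 6.04% in peach. LTRretrotransposon977, LTRretrotransposon5453 and LTRretrotransposon1734 were low in both genotypes in every context. A copy of LTRretrotransposon3464 (Pp06:10866410-10874015) differed, with 3.57% CG but 14.3% CHH in peach. It had no CHG value in peach and no value in the hybrid.

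A few elements stood at opposite ends in the genotypes. LTRretrotransposon2791 (Pp04:9321087-9327429) had 13.0% CG in the hybrid and 87.2% in peach, with CHG at 0.27% in the hybrid and 72.9% in peach and CHH at 0.09% in the hybrid and 9.37% in peach. LTRretrotransposon4234 (Pp06:22284263-22288706, minus strand) was the reverse, with CG at 80.7% in the hybrid and 19.7% in peach, CHG at 69.3% in the hybrid and 0.17% in peach, and CHH at 8.20% in the hybrid and 0.27% in peach. These were the lowest and the highest CHG differences of the 3427 elements with all contexts.

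Other large differences did not involve every context. LTRretrotransposon2798 (Pp04:9481426-9486224, minus strand) had 45.8% CG in the hybrid and 94.0% in peach with CHG nearly equal, at 71.0% in the hybrid and 72.5% in peach. A copy of LTRretrotransposon3464 (Pp02:15382971-15387846) had 32.3% CHG in the hybrid and 77.4% in peach with CG at 99.3% in the hybrid and 97.5% in peach. LTRretrotransposon1369 (Pp02:9225291-9230167, plus strand) had 68.3% CG in the hybrid and 9.71% in peach, with CHG at 42.4% in the hybrid and 0.16% in peach. Without replicate values or coverage, none of these single elements could be tested.

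In 3 copies of LTRretrotransposon1158 with large positive CHG differences, the CG differences went both ways, at -4.20, -5.36 and 3.67 points. The copy at Pp05:6959388-6965461 had 65.7% CHG in the hybrid and 15.1% in peach, at 91.8% CG in the hybrid and 96.0% in peach. The copy at Pp02:10463701-10473881 had 61.9% CHG in the hybrid and 16.2% in peach, at 90.1% CG in the hybrid and 95.4% in peach. LTRretrotransposon5026 (Pp07:4486661-4491266), which lies in the window of Pp07 and carries another name, had 54.9% CHG in the hybrid and 10.1% in peach, at 89.7% CG in the hybrid and 92.2% in peach.

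High CHH methylation was rare. The highest level in peach was that of a copy of LTRretrotransposon1088 (Pp03:27313721-27317908), with 71.9% in the hybrid and 66.3% in peach. LTRretrotransposon4866 (Pp07:21931643-21938142, minus strand) had 56.9% in the hybrid and 51.9% in peach, together with CHG at 93.7% in the hybrid and 93.1% in peach. Among the 3427 elements with all contexts in both genotypes, the largest CHH differences were 26.3 points in a copy of LTRretrotransposon2044 (Pp02:9819315-9823374), with 37.7% in the hybrid and 11.4% in peach, and -24.0 points in LTRretrotransposon1505 (Pp02:13515000-13521251, minus strand), with 9.13% in the hybrid and 33.1% in peach.

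The RNA counts give 4 LTR families whose representative copy is a long element on the peach genome. A family's counts are of reads assigned to its representative copies and related ones, so they need not be those of the copy alone, and RNA of the other long elements was not analysed here. Levels are counts per 1000000 counts of a library after TMM scaling (CPM), and the libraries held between 14971526 and 35450910 counts. In a fit of edgeR over all 19085 features tested, 5.2% were called higher in the hybrid and 2.31% lower, or 7.51% in all, where a call needs an adjusted p below 0.05 and at least 1 unit of log2 fold change. None of the 4 families was called, by edgeR or by DESeq2. An unadjusted p under 0.05 in edgeR was found for 1, and the share of all features under that p was not counted.

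LTR_155 is represented by a copy with little CHG methylation, LTRretrotransposon4697 (Pp07:11439955-11444586, minus strand). Its CHG level was 8.75% in the hybrid and 3.78% in peach, at 69.9% CG in the hybrid and 66.0% in peach, with CHH at 0.99% in the hybrid and 1.28% in peach. The family had 32.6, 40.6 and 44.7 CPM in the hybrid libraries, against 21.0, 22.4 and 27.8 CPM in peach. The groups did not overlap, and the share of all features for which this holds was not counted. The log2 fold change, hybrid over peach, was 0.73 (SE 0.18, edgeR adjusted p = 0.0264), below the size needed for a call, and the adjusted p lay between 0.0174 and 0.0999 when each library was left out in turn. The almond libraries had 17.6 to 23.8 CPM.

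LTR_3 is represented by LTRretrotransposon4333 (Pp06:27139890-27148350, plus strand), which was highly methylated. The study names it as the expressed copy of the family. CHG stood at 77.9% in the hybrid and 83.3% in peach, and CHH, at 18.7% in the hybrid and 18.5% in peach, was above that of 95.1% of the long elements in peach. The family had 22.8, 19.5 and 31.7 CPM in the hybrid libraries, against 20.7, 10.9 and 4.26 CPM in peach, so that 1 hybrid library lay below the highest peach library. The log2 fold change was 1.04 (SE 0.53, edgeR adjusted p = 0.251), and it was 1.70 without peach replicate 1 and 0.64 without peach replicate 4.

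LTR_48 is represented by LTRretrotransposon2422 (Pp03:19410954-19415895, plus strand), with 96.1% CG in the hybrid and 99.0% in peach, and CHG at 73.7% in the hybrid and 79.5% in peach. The family had 12.4, 20.2 and 13.5 CPM in the hybrid libraries, against 30.9, 31.2 and 15.1 CPM in peach. The groups overlapped through a single peach library. The log2 fold change was -0.74 (SE 0.37, edgeR adjusted p = 0.238).

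LTR_81 is represented by LTRretrotransposon4184 (Pp06:20592080-20596991, plus strand), with 54.5% CHG in the hybrid and 62.6% in peach. A further copy, LTRretrotransposon2429 (Pp03:19702391-19706564, minus strand), which the study names as expressed, had 62.8% CHG in the hybrid and 67.8% in peach. The family had 9.18, 14.3 and 18.5 CPM in the hybrid libraries, against 14.6, 19.6 and 12.9 CPM in peach, which overlapped. The log2 fold change was -0.17 (SE 0.31, edgeR adjusted p = 0.797). Of the 5 named copies, LTRretrotransposon4697 alone had higher CG and CHG methylation in the hybrid than in peach. The almond libraries had at most 5.60 CPM of LTR_81 and at most 2.04 of either LTR_3 or LTR_48.

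**Figure D5:**
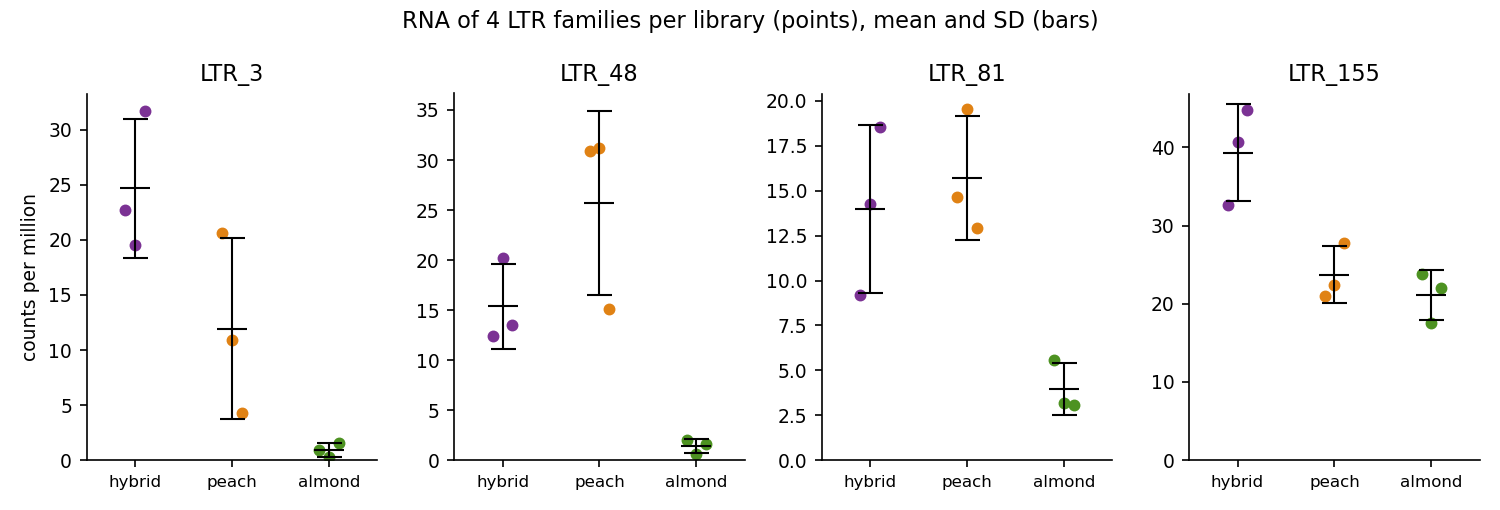
RNA of the 4 LTR families with a long peach representative copy, in CPM (y axis, starting at 0 in each panel), with 1 point per library and bars for the mean and SD of the 3 libraries of the hybrid, peach and almond. The hybrid and peach points overlap in LTR_3, LTR_48 and LTR_81 and do not in LTR_155 (32.6 to 44.7 CPM in the hybrid, 21.0 to 27.8 in peach).

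The genes that place or remove DNA methylation were taken from the list of the study. Of its 9 genes, 8 passed the filter on low counts, and none was called by edgeR against the 5.2% of features called higher and 2.31% called lower. At an unadjusted p under 0.05 in edgeR there were 2, both RNA-dependent RNA polymerases, enzymes that make double-stranded RNA for small RNA production. The share of all features under that p was not counted. DESeq2 called 1 of the 2 polymerases. The study picked these polymerases from the same libraries, so they are not independent evidence. It reported both among the genes significantly lower in the hybrid than in the parents, whereas edgeR called neither against peach here. Almond libraries averaged 3.70 CPM of Prupe.1G334500 and 3.60 of Prupe.1G332600, and the hybrid was not tested against almond here. Prupe.1G334500 had 0.75, 1.51 and 0.50 CPM in the hybrid libraries, against 2.34, 2.25 and 4.86 CPM in peach, a log2 fold change of -1.76 (SE 0.62, edgeR adjusted p = 0.0984, DESeq2 adjusted p = 0.0385). Prupe.1G332600 had 0.31, 0.98 and 0.42 CPM in the hybrid libraries, against 1.23, 1.06 and 4.33 CPM in peach, a log2 fold change of -1.94 (SE 0.72, edgeR adjusted p = 0.119), which was -0.99 (edgeR adjusted p = 0.437) without peach replicate 4. In both the groups did not overlap, at low levels between 0.31 and 4.86 CPM. The share of all features without overlap was not counted.

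The methyltransferases and demethylases that were tested differed by less. The DNA methyltransferase Prupe.6G322700 had 65.1, 77.8 and 79.1 CPM in the hybrid libraries, against 90.78, 74.98 and 59.10 CPM in peach, a log2 fold change of -0.02 (SE 0.17). The methyltransferases Prupe.8G038800 and Prupe.7G183100 had log2 fold changes of 0.32 and -0.11. Prupe.6G011600 was too low to test, with at most 0.25 CPM in a hybrid library and at most 1.17 in a peach library. The DNA demethylases Prupe.7G005000, Prupe.7G118000 and Prupe.6G119100 had log2 fold changes of 0.34, 0.13 and -0.75, with edgeR adjusted p-values of 0.262, 0.72 and 0.289. Prupe.6G119100 had 4.15, 3.08 and 3.59 CPM in the hybrid libraries, against 5.39, 5.97 and 6.85 CPM in peach. Its groups, like those of the polymerases, did not overlap, and the share of all features for which this holds was not counted.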

How the data were processed

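The members, names and gene lists were chosen with earlier results of these data known. To make the deposited percentages, the authors aligned bisulphite reads with Bismark 0.19.1 (version per the submitters' processing notes), those of the hybrid to each parental genome in turn, kept uniquely aligned reads and cytosines covered at least 3 times, and computed 1 percent value per TE, context and genotype with SeqMonk. The 2 libraries of a genotype were pooled, without coverage. The deposited counts were made by the authors with RSEM on peach transcripts joined with representative TE copies; the regularized log table was not used here. Every count is even, and the sources used here do not say whether a read pair counts as 2. In the counts, 1 line holding 2 records was split.

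From the percentages, levels and hybrid minus peach differences were computed over elements with pandas 2.3.3 in Python 3.11.15 and drawn with matplotlib 3.10.9. Elements were placed in windows of 1 Mb by their midpoint, and windows or names with under 20 pairs were not described. The element names given are the 5 most frequent, the 3 with the lowest and the 3 with the highest mean CHG difference, and the 3 highest in CHH. Single elements are representative copies of families, the longest, the highest CHH and lowest CG levels in peach, and the extremes of the difference in each context among elements with all contexts in both genotypes. The windows and distances around LTRretrotransposon1158 were chosen after values were seen.

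Counts of all 9 RNA libraries entered 1 edgeR 4.0.16 quasi-likelihood fit in R 4.3.3 with genotype as factor, TMM scaling and filterByExpr, which kept 19085 of 22334 features. Benjamini-Hochberg adjustment was over all of them. DESeq2 1.42.0 was an alternative. The labels and methods give 3 biological replicates per genotype, and log2 correlations between replicates of the hybrid or of peach were between 0.969 and 0.989. Scripts were tested on simulated data. No genome was used here, so no sequence or gene position is given, and leaf marker genes could not be matched to the peach identifiers. The number of sample columns left unused was 0.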

Additional observations from a re-analysis of the deposited data

How the results depend on the processing

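The methylation differences could be recomputed only over other sets of elements, since each genotype has 1 value, and their number does not stand in for replicates. Over the alternatives tried (medians, length weights, 1 mean per name, other length limits, subsets, each chromosome left out) the mean paired difference lay between -2.70 and -1.73 points in CG and between -5.03 and -2.91 in CHG, and no difference changed sign. The CHH mean was close to 0 and moved by over 1.5 times, to -0.253 points with 1 mean per name, -0.167 as a median, -0.0329 weighted by length, -0.0178 without Pp01 and -0.0265 without Pp06; it was -0.120 without LTRretrotransposon1158 and LTRretrotransposon563, an alternative added after the data were seen. Counts depended on the threshold by construction. At 5 points, 472 elements were lower and 61 higher in CG, and 1742 were lower and 259 higher in CHG. In CHH 86 were lower and 101 higher. At 20 points, 23 were lower and 10 higher in CG, and 47 were lower and 110 higher in CHG. In CHH 1 was lower and 8 were higher. The shares over all TEs were not counted at 5 or 20 points, so these counts have no background beside them.

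No LTR family was called under any alternative of the RNA fit. Among the DNA methylation genes DESeq2 called 1, Prupe.1G334500. Directions of small differences turned: with libraries left out in turn, the log2 fold change lay between -0.40 and 0.092 for LTR_81, between -0.35 and 0.28 for Prupe.7G183100 and between -0.16 and 0.15 for Prupe.6G322700. The replicate block by the numbers in the labels gave 0.13 for Prupe.7G183100, and 994 features were called with it and 1433 without it; it changed no call among the families and genes. Hybrid and peach share the numbers 1 and 3 only, and the deviations of their same-numbered libraries had correlations of 0.02 and -0.07, so the numbers were not taken as pairs. No paired analysis was possible for methylation because the libraries of a genotype share a column.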
